A study of Mus musculus with 64 samples.

Results

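The response of endothelial cells of the newborn mouse heart to a myocardial infarction (MI) was measured by sequencing total RNA in 8 of the 64 libraries of the series. The labels chose them: 4 libraries of CD31+/CD45- cells from hearts infarcted on postnatal day 1 (P1), and 4 of the same sorted cells from hearts that had a sham operation on that day. Mice of both groups were CD1, the sham mice went through the surgery without an infarct being made, and cells were taken 3 days after surgery from ventricles pooled 6 at a time and digested with Liberase. All genes of the table were kept, so no gene was chosen by its values. The comparisons used in addition the 8 endothelial libraries of CD1 mice operated on at postnatal day 56 (P56; 4 MI with the left descending coronary artery tied off and 4 sham, cells likewise taken 3 days after surgery), and the 24 other P1 libraries, 4 MI and 4 sham each of cardiomyocytes, CD90+ fibroblasts and CD45+ leukocytes. The P56 mice were males and their hearts were digested by perfusion through the aorta, whereas the P1 ventricles were cut up and stirred and the labels give no sex for them, so age, sex and dissociation cannot be told apart between the ages. Pooling of animals limits the groups as a model, since a pool gives no view of a single heart and the infarcted and remote parts of the ventricles were digested together. The labels do not say whether the 4 libraries of a group came from separate pools, so a p-value here speaks of how far the libraries themselves scatter, and that scatter can be partly technical.

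Endothelial cells line the blood vessels, and in the heart most of them form capillaries that pass oxygen and fatty acids to the muscle. After an injury they can divide and sprout under the control of VEGF and Notch signals, display adhesion molecules and chemokines that bring in leukocytes, and answer inflammatory cytokines through the transcription factor NF-kB. Interferons act on them through STAT and IRF factors, which bind a DNA element called the interferon-stimulated response element (ISRE) and switch on antiviral and antigen presentation genes. The newborn mouse heart is known for rebuilding muscle after an infarct, whereas the adult heart scars.

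At this time after surgery few genes differed between MI and sham in the P1 endothelial cells. Counts scaled by 1 factor per library are called CPM here. Of 15706 genes with at least 1 CPM in at least 4 of the 16 endothelial libraries, 14 were higher after MI (0.0891%) and 20 were lower (0.127%). That was 0.216% in all, by limma on log2(CPM + 0.5) with a Benjamini-Hochberg adjusted p under 0.05. A gene that passed is said to have risen or fallen, and fold changes are MI over sham after the added 0.5 CPM, so that genes near 0 appear to change less than they did. The leading genes were Tnfaip3, Pdgfa and Lrp3 among those that rose, and Nlrp6, Nabp1 and H2-Q4 among those that fell. At an unadjusted p under 0.05, 1071 genes were higher (6.82%) and 1151 lower (7.33%). In all, 33 of the 34 genes had 4 MI libraries on one side of all 4 sham libraries. Among all genes tested, the MI libraries lay above all sham libraries for 4.5% and below them for 5.23%. The adjusted p-values lay between 0.0249 and 0.0485, so the calls sat near the threshold. Leaving out MI replicate 1 or MI replicate 2 ended every call (limma, 1488 and 1491 genes at an unadjusted p under 0.05), and leaving out sham replicate 1, 2 or 3 left 1 and 7, 1 and 0, and 1 and 1 genes higher and lower. Leaving out MI replicate 4 gave 37 and 72, and leaving out sham replicate 4 gave 196 and 65. With all 8 libraries edgeR called 10 higher and 17 lower and DESeq2 called 151 and 183.

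A pair of libraries stood apart from their groups. Along the first principal component of the 8 libraries, which held 40.0% of the variance, the MI libraries 1 to 4 lay at 24.0, 27.6, 6.95 and -0.449, and the sham libraries 1 to 4 at -24.6, -23.0, -15.1 and 4.65. MI replicate 4 thus lay below sham replicate 4, against their labels. Whether the labels of these 2 libraries had been exchanged was not tested, and every value below takes the labels as given. Recovered depth was 18.1 M to 21.6 M reads per library, so 3 reads, the floor used here, were worth 0.112 to 0.131 CPM, which covers counting error only. Reads from mitochondrial ribosomal RNA made up 2.18%, 1.81%, 1.46% and 1.26% of MI libraries 1 to 4. In sham libraries 1 to 4 they made up 0.832%, 1.08%, 1.21% and 1.96%. Sham replicate 4 was thus within the range of the MI libraries, and the other sham libraries were below it. Other ribosomal RNA made up 1.65%, 0.967%, 0.0683% and 0.0254% of the MI libraries and 0.0271%, 0.0348%, 0.474% and 0.0726% of the sham libraries. The part of these shares in the differences below was not tested. Without both libraries numbered 4, limma called 315 genes higher (2.02%) and 134 lower (0.859%) of 15594, and 31 of the 34 genes were among those 449. These 2 libraries were singled out from these same data, as the ones lying against their labels. Leaving them out therefore favours a wider contrast. Counts and adjusted p-values without them, here and below, are a description and not a separate test.

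Markers of the sorted cells and of cells that the gate should leave out were read beside this. The 16 endothelial identity genes, among them Pecam1 (CD31 itself), Cdh5 (the junction protein VE-cadherin) and Kdr (the main VEGF receptor), summed to 13107, 11240, 11216 and 11622 CPM in MI libraries 1 to 4 and to 12598, 12003, 12079 and 10301 CPM in sham libraries 1 to 4. The label of the cells was thus borne out in every library, and sham replicate 4 had the lowest sum. The same 16 genes summed to at most 514 CPM in MI fibroblast libraries and 521 CPM in sham fibroblast libraries of the same age.

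Markers of fibroblasts differed more between the libraries. The 13 fibroblast markers, all of them tested, summed to 4255, 4695, 3180 and 2476 CPM in MI libraries 1 to 4 and to 1237, 1258, 1775 and 4170 CPM in sham libraries 1 to 4, against 61795 to 81031 CPM in MI fibroblasts and 60632 to 81806 CPM in sham fibroblasts. Sham replicate 4 was within the range of the MI libraries and the other sham libraries were below it. The 16 cardiomyocyte markers summed to 1696, 1107, 1249 and 670 CPM in the MI libraries and to 708, 738, 688 and 2504 CPM in the sham libraries, so that sham replicate 4 held the highest sum of all 8. The 12 monocyte and macrophage markers summed to 94.5, 138, 48.7 and 67.0 CPM in the MI libraries and to 24.4, 34.0, 37.0 and 109 CPM in the sham libraries, against 10998 to 13139 CPM in MI leukocytes and 3544 to 4661 CPM in sham leukocytes. Ptprc, which encodes CD45, the antigen the sort left out, was at 3.89, 5.52, 1.75 and 2.64 CPM in the MI libraries, against 0.598, 0.493, 1.67 and 6.87 CPM in the sham libraries, again highest in sham replicate 4. Markers of mural cells (pericytes and smooth muscle, 12 genes) summed to 2530, 2195, 2474 and 1962 CPM in the MI libraries and to 1921, 1749, 1856 and 1892 CPM in the sham libraries, with no overlap. None of these markers was at 0 in all 8 libraries. Of the 13 T and NK cell markers 1 was tested, of the 9 B cell markers 2 and of the 12 neutrophil markers 4. In bulk RNA, more cells of a type and more RNA per cell cannot be told apart.

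**Figure D1:**
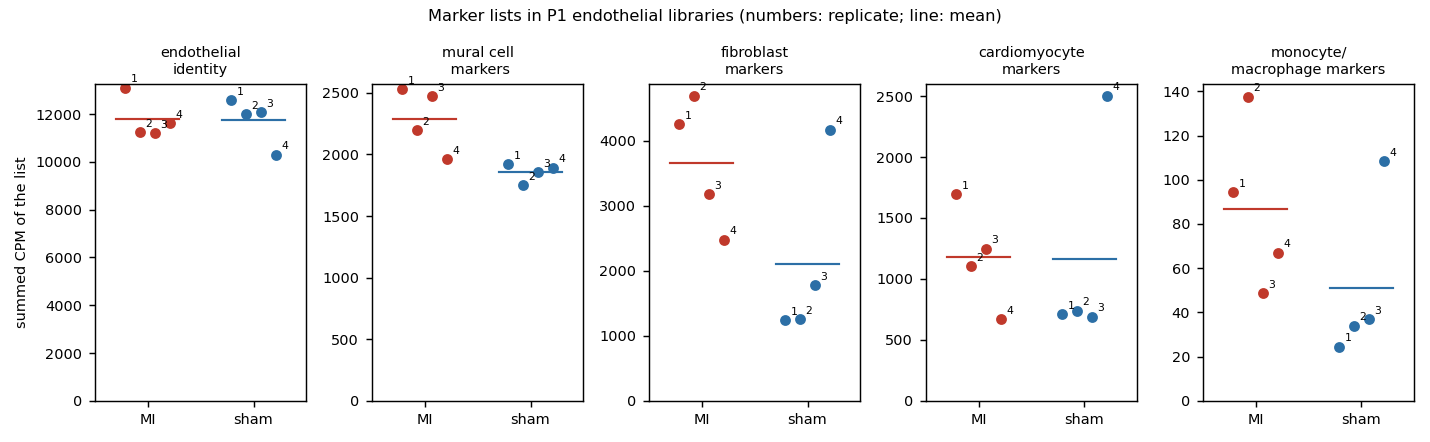
Summed CPM (y axes, linear from 0) of 5 marker lists in the 4 MI (red) and 4 sham (blue) endothelial libraries at P1; a point is a library with its replicate number and a line is the group mean. Sham replicate 4 sits with the MI libraries for fibroblast markers (4170 CPM, against 1237 to 1775 CPM in the other sham libraries) and has the highest cardiomyocyte sum, 2504 CPM.

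Tnfaip3 had the smallest p of the genes that rose. It encodes A20, an enzyme that edits ubiquitin chains and shuts off NF-kB signalling, and NF-kB itself switches the gene on. Tnfaip3 (chromosome 10, 19000910 to 19015657, minus strand, GRCm38) was at 145, 125, 118 and 111 CPM in the MI libraries, against 55.4, 80.3, 73.5 and 57.6 CPM in the sham libraries. The groups did not overlap, and the lowest MI library was well above the highest sham library. The mean was 125 ± 14.7 CPM in MI libraries and 66.7 ± 12.1 CPM in sham libraries (SD, n = 4 each), a log2 fold change of 0.91 ± 0.13 (SE; adjusted p = 0.0249, limma). The call was kept in 18 of 21 alternative analyses, more than for any other of the 34 genes. A promoter window is shown because it holds matches to the NF-kB consensus. There were 2 RefSeq windows for this gene, and the first is shown. It lies almost wholly inside the gene as placed above, which on this strand begins at base 19015657. The start of transcription used for the window is thus not the one given above. The window runs from 250 bases before to 50 bases after the start of transcription in RefSeq (chr10:19015361-19015660, GRCm38.p6, minus strand, written 5′ to 3′ along the gene), and capitals mark matches to the NF-kB consensus on either strand:
Tnfaip3: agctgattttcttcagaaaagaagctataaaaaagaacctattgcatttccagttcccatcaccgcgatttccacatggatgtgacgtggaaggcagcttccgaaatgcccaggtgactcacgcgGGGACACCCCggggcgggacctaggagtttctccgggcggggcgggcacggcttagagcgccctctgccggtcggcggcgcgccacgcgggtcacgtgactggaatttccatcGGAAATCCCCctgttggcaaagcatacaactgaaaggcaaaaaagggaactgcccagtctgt
The consensus matched at 2 places, which start at bases 126 and 239 of the window, and the match at base 126 reads as a site on both strands. A match was present in 8.46% of all 32851 RefSeq promoter windows of this length. Among the genes called higher, 3 of 11 with a window held one, and among the genes called lower 4 of 15; a match describes the letters and does not show that a factor bound there.

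The other genes that rose had varied roles, and each is described with its level because several are low. Among secreted proteins, Pdgfa, a growth factor that acts on mesenchymal cells through the receptor PDGFRA, was at 6.08, 8.82, 5.86 and 7.13 CPM in the MI libraries, against 2.69, 2.79, 3.29 and 3.99 CPM in the sham libraries. Every MI library exceeded every sham library, and the log2 fold change was 1.01 ± 0.17 (adjusted p = 0.0342, limma). Spon1, which encodes the matrix protein F-spondin, was at 109, 141, 91.6 and 126 CPM in the MI libraries, against 56, 63.3, 76.4 and 71.8 CPM in the sham libraries. Its change was 0.79 ± 0.14 on the log2 scale (adjusted p = 0.0365), with MI replicate 3 the nearest to the sham libraries. Prss23, a secreted serine protease, averaged 11.4 ± 1.44 CPM in MI libraries and 6.48 ± 0.477 CPM in sham libraries (SD, n = 4 each). The Prss23 log2 fold change was 0.77 (adjusted p = 0.0342).

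Receptors, adhesion and trafficking proteins rose as well. Lrp3, a member of the LDL receptor family, was at 7.39, 6.38, 5.86 and 6.25 CPM in the MI libraries, against 1.94, 2.42, 2.25 and 3.31 CPM in the sham libraries, and its log2 fold change was 1.24 ± 0.22 (adjusted p = 0.0342, limma). The MI libraries were close together and all above the sham libraries. Fat1, a giant cadherin that acts on cell polarity, was at 186, 159, 121 and 104 CPM in the MI libraries, against 49.7, 58.6, 84.9 and 99.8 CPM in the sham libraries. Both libraries numbered 4 were nearly level for Fat1 (log2 fold change over all 8 libraries 0.97 ± 0.19, adjusted p = 0.0484), and without them the log2 fold change was 1.28. Ehd3, which recycles membrane receptors, averaged 10.1 ± 0.617 CPM in MI libraries and 5.47 ± 1.07 CPM in sham libraries (SD, n = 4 each). The Ehd3 log2 fold change was 0.85 (adjusted p = 0.0484). Evc2, a protein of the primary cilium that takes part in hedgehog signalling, averaged 13 ± 1.37 CPM in MI libraries and 8.07 ± 1.03 CPM in sham libraries (SD, n = 4 each), and its log2 fold change was 0.65 (adjusted p = 0.0484). Mapk6 (the atypical kinase ERK3), Specc1 (a coiled-coil protein of the cytoskeleton) and Cux1 (a homeodomain transcription factor) had the smallest changes, with log2 fold changes of 0.43, 0.48 and 0.29 and adjusted p-values of 0.0395, 0.0484 and 0.0485 (limma).

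Below a mean of 5 CPM, 3 further genes rose; they are named here after their values were seen. Actg2, the gamma actin of smooth muscle, was at 3.81, 4.32, 3.47 and 1.63 CPM in the MI libraries, against 0.598, 0.411, 0.813 and 1.59 CPM in the sham libraries. The lowest MI library and the highest sham library, both numbered 4, differed little. Its log2 fold change was 1.5 ± 0.27 (adjusted p = 0.0365, limma), and since its sequence is close to that of Acta2 and other actins, reads of 50 bases could have been split between them. Tbx5, a T-box transcription factor of heart development, was at 3.28, 2.74, 1.99 and 2.14 CPM in the MI libraries, against 0.747, 0.616, 0.658 and 1.42 CPM in the sham libraries. The Tbx5 log2 fold change was 1.18 (adjusted p = 0.0342). Sorcs1, a sorting receptor, was at 1.23, 1.16, 1.36 and 1.26 CPM in the MI libraries, against 0.336, 0.370, 0.232 and 0.387 CPM in the sham libraries, and the groups were far apart for such low values (log2 fold change 1.08, adjusted p = 0.0386). Several of these genes stood higher in the other populations: MI fibroblasts averaged 646 CPM of Fat1, 59.7 CPM of Evc2, 29.2 CPM of Lrp3 and 13.7 CPM of Actg2, and MI cardiomyocytes 18.8 CPM of Tbx5. Sham replicate 4 had a fibroblast marker sum above those of MI replicates 3 and 4. These 5 genes were picked as genes that rose, and each had every MI library above every sham library. The place of sham replicate 4 below MI replicates 3 and 4 is therefore no separate observation. The margin was wide for Lrp3 and, against MI replicate 4, narrow for Fat1 and Actg2. The part of other cells in these values was not tested.

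**Figure D2:**
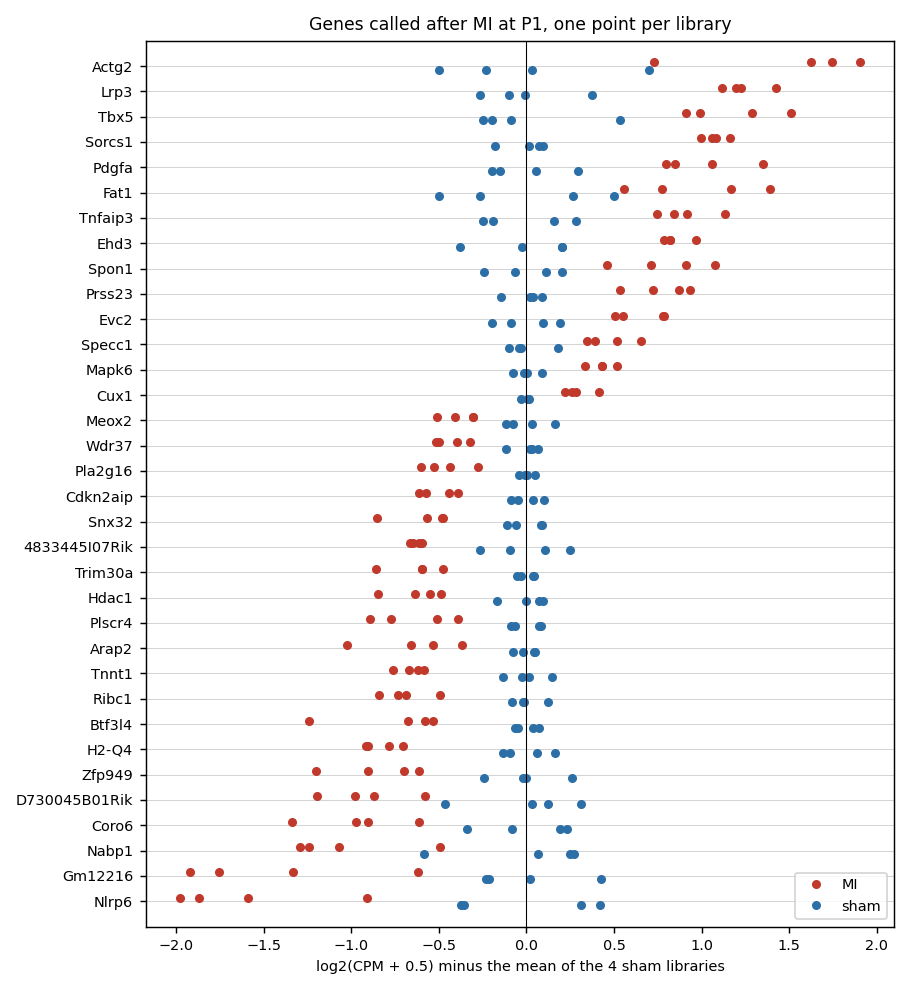
Genes called after MI at P1, sorted by fold change; the x axis is log2(CPM + 0.5) minus the mean of the 4 sham libraries, and each point is a library (MI red, sham blue). The groups are separate for 33 of the 34 genes; the exception is Nabp1, and Actg2 is nearly so.

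Among the 20 genes that fell, Nlrp6 changed the most. It encodes a NOD-like receptor that assembles inflammasomes. Nlrp6 (chromosome 7, 140920902 to 140929192, GRCm38) was at 0.963, 0.856, 1.28 and 2.35 CPM in the MI libraries, against 3.62, 6.12, 3.68 and 6.66 CPM in the sham libraries. MI replicate 4 was the highest of its group and still below the lowest sham library. The log2 fold change was -1.59 ± 0.22 (adjusted p = 0.0249, limma). Nabp1, a protein that binds single-stranded DNA in DNA repair, was at 17.4, 15.5, 14.9 and 26.2 CPM in the MI libraries, against 24.6, 44.9, 38.9 and 44.2 CPM in the sham libraries. This was the gene whose groups overlapped, MI replicate 4 lying above sham replicate 1, and its log2 fold change was -1.02 ± 0.18 (adjusted p = 0.0342). Hdac1, a histone deacetylase, was at 16.1, 13.8, 17.9 and 17.1 CPM in the MI libraries, against 22.4, 27.1, 25.3 and 26.6 CPM in the sham libraries. The Hdac1 log2 fold change was -0.63 ± 0.12 (adjusted p = 0.0386). The zinc finger gene Zfp949 averaged 7.35 ± 1.36 CPM in MI libraries and 13.6 ± 2.01 CPM in sham libraries (SD, n = 4 each). The Zfp949 log2 fold change was -0.85 (adjusted p = 0.0342). Btf3l4, a relative of a basal transcription factor, averaged 6.51 ± 1.43 CPM in MI libraries and 11.1 ± 0.548 CPM in sham libraries (SD, n = 4 each). The Btf3l4 log2 fold change was -0.76 (adjusted p = 0.0342).

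Genes of the cytoskeleton, membrane and vesicle traffic also fell. Coro6, an actin-binding coronin, was at 6.48, 4.67, 8.06 and 6.16 CPM in the MI libraries, against 11.8, 14.8, 9.84 and 14.4 CPM in the sham libraries, with a log2 fold change of -0.96 ± 0.17 (adjusted p = 0.0342, limma). Tnnt1, the troponin T of slow skeletal muscle, averaged 3.22 ± 0.198 CPM in MI libraries and 5.37 ± 0.469 CPM in sham libraries (SD, n = 4 each). The Tnnt1 log2 fold change was -0.66 (adjusted p = 0.0452). Arap2, which switches off Arf GTPases, was at 30.4, 23.5, 37.3 and 33.3 CPM in the MI libraries, against 49.7, 47.8, 50.1 and 45.9 CPM in the sham libraries, and no MI library reached the sham libraries (log2 fold change -0.65, adjusted p = 0.0484). Plscr4 (a phospholipid scramblase) and Snx32 (a sorting nexin) had log2 fold changes of -0.64 and -0.60 (adjusted p = 0.0386 and 0.0365). Meox2, a homeobox factor of vascular endothelium that is known in mouse to drive fatty acid uptake in heart capillaries, was at 81.0, 86.9, 93.3 and 93.3 CPM in the MI libraries, against 129, 118, 109 and 106 CPM in the sham libraries. The groups were close but separate, and the log2 fold change was -0.38 ± 0.07 (adjusted p = 0.0484). The other genes that fell, Gm12216, Cdkn2aip, Pla2g16, Wdr37, Ribc1 and 2 long noncoding RNAs, had log2 fold changes between -1.41 (Gm12216) and -0.43 (Wdr37); they lay outside the rule for named genes and are listed after their values were seen.

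H2-Q4 and Trim30a, genes linked to interferon and antigen presentation, were among those that fell. H2-Q4 (chromosome 17, 35379617 to 35385290, GRCm38), an MHC class I heavy chain, was at 30.7, 28.2, 28.0 and 32.5 CPM in the MI libraries, against 59.7, 55.6, 49.9 and 48.4 CPM in the sham libraries. The MI libraries were alike and all below the sham libraries, with a log2 fold change of -0.83 ± 0.14 (adjusted p = 0.0342, limma). Trim30a, a TRIM protein that interferon induces and that restrains Toll-like receptor signalling, was at 21.6, 17.9, 23.5 and 21.6 CPM in the MI libraries, against 33.9, 33.9, 31.7 and 32.2 CPM in the sham libraries. The Trim30a log2 fold change was -0.63 ± 0.11 (adjusted p = 0.0342). Both belong to families of near-identical genes, so their counts are uncertain to the extent that reads of 50 bases were split between copies.

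All 26 interferon-stimulated genes tested had a log2 fold change below 0, and 0 of the 26 passed the test (smallest adjusted p 0.0677, limma). At an unadjusted p under 0.05 limma had 15 of them lower and 0 higher; edgeR called 0 and DESeq2 called 3 lower. The median was -0.51, beside 0.01 over all genes tested, and the list's fold changes ran from -0.91 to -0.14. For 7 of the 26 the MI libraries lay below all sham libraries, beside 5.23% of all genes. Since members of the list share regulators and libraries, their common direction is 1 pattern rather than 26. The list of 27 summed to 471 to 623 CPM in the MI libraries and to 543 to 799 CPM in the sham libraries, so the sums overlapped. Irgm1 and Ddx58 were the most abundant members; Irgm1, a GTPase that defends cells against pathogens, had a log2 fold change of -0.34 (adjusted p = 0.439), and Ddx58, which encodes the RNA sensor RIG-I, -0.22 (adjusted p = 0.343).

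Members further down the list, chosen after their values were seen, show the pattern by library. Mx2, an antiviral GTPase, was at 16, 9.38, 10.2 and 12.4 CPM in the MI libraries, against 20.4, 27.1, 17.5 and 26.6 CPM in the sham libraries. Ifih1, which encodes the RNA sensor MDA5, was at 19, 16.8, 15.2 and 17.7 CPM in the MI libraries, against 28.1, 24.5, 21.6 and 26.7 CPM in the sham libraries. Isg15, a ubiquitin-like protein, was at 4.46, 2.95, 2.67 and 3.60 CPM in the MI libraries, against 4.86, 5.87, 4.92 and 5.67 CPM in the sham libraries. For each of these 3 genes the highest MI library was below the lowest sham library, and the log2 fold changes were -0.91 ± 0.21 for Mx2, -0.54 ± 0.12 for Ifih1 and -0.59 ± 0.18 for Isg15 (adjusted p = 0.0677, 0.0712 and 0.170, not called). Rsad2, which encodes the antiviral enzyme viperin, was at 16, 13.1, 18.8 and 18.9 CPM in the MI libraries, against 26.8, 31.1, 22.6 and 26.9 CPM in the sham libraries, and its groups were likewise separate (log2 fold change -0.68 ± 0.33, adjusted p = 0.370). The nucleotide kinase gene Cmpk2 averaged 21.9 ± 1.38 CPM in MI libraries and 36.9 ± 2.97 CPM in sham libraries (SD, n = 4 each). The Cmpk2 log2 fold change was -0.74 (adjusted p = 0.149). Without both libraries numbered 4 the list's median was -0.40 and again 0 members were called.

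The promoters of 3 of these genes are shown because each holds the interferon element, with bases that match GAAA, any 2 bases and GAAA again on either strand in capitals (RefSeq windows on GRCm38.p6, 250 bases before to 50 bases after the start, written 5′ to 3′ along the gene, all on the minus strand). They are Isg15 at chr4:156200769-156201068, Rsad2 at chr12:26456403-26456702 and Ifih1 at chr2:62646206-62646505:
Isg15: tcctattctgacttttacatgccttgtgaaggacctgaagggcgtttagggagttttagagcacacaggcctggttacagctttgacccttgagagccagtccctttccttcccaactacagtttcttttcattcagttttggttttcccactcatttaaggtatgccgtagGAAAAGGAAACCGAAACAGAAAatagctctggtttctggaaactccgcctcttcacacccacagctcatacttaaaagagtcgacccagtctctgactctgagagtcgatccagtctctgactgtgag
Rsad2: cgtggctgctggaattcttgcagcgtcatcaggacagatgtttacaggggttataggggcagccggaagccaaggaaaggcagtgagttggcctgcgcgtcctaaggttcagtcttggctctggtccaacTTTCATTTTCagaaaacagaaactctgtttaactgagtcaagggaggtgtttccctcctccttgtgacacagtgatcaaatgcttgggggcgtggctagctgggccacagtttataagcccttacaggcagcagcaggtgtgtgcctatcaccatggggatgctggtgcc
Ifih1: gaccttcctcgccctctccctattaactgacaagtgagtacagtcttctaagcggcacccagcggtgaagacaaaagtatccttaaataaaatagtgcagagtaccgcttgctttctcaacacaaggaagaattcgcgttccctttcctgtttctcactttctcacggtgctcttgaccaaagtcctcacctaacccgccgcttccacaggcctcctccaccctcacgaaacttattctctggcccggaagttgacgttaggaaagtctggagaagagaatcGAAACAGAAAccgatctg
In Isg15 the capitals hold 3 overlapping matches, which start at bases 173, 179 and 185. The match in Rsad2 starts at base 131 and lies on the opposite strand, and the match in Ifih1 starts at base 283, after the transcription start. Of the 21 interferon-stimulated genes with a window, 13 (61.9%) held a match, beside 3.44% of all 32851 windows. Among the called genes, a match was found in 0 of the 11 windows of higher genes and 2 of the 15 windows of lower genes (13.3%). The list was put together from genes known to answer interferon, which often carry the element.

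Of the 13 genes of MHC class I presentation tested, 1 fell (H2-Q4) and 0 rose, beside 0.127% and 0.0891% of all genes. The median log2 fold change was -0.30. For 4 of the 13 the MI libraries lay below all sham libraries, beside 5.23% of all genes. H2-D1, a classical class I heavy chain, was at 327, 301, 212 and 353 CPM in the MI libraries, against 535, 529, 469.6 and 460.1 CPM in the sham libraries. The MI libraries were all below the sham libraries, but spread widely, and the log2 fold change of -0.76 ± 0.19 did not pass (adjusted p = 0.101, limma). B2m, the light chain of class I molecules, was at 241, 273, 220.5 and 246 CPM in the MI libraries, against 325, 274, 294 and 324 CPM in the sham libraries (log2 fold change -0.31, adjusted p = 0.426), and H2-K1, the other classical heavy chain, at 145, 132, 121 and 133 CPM in the MI libraries, against 186, 174, 166 and 179 CPM in the sham libraries. The H2-K1 log2 fold change was -0.41 (adjusted p = 0.271). The list summed to 845 to 1140 CPM in the MI libraries and to 1260 to 1461 CPM in the sham libraries, which do not overlap. Without both libraries numbered 4 the list's median was -0.08 and H2-Q4 was the member called.

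**Figure D3:**
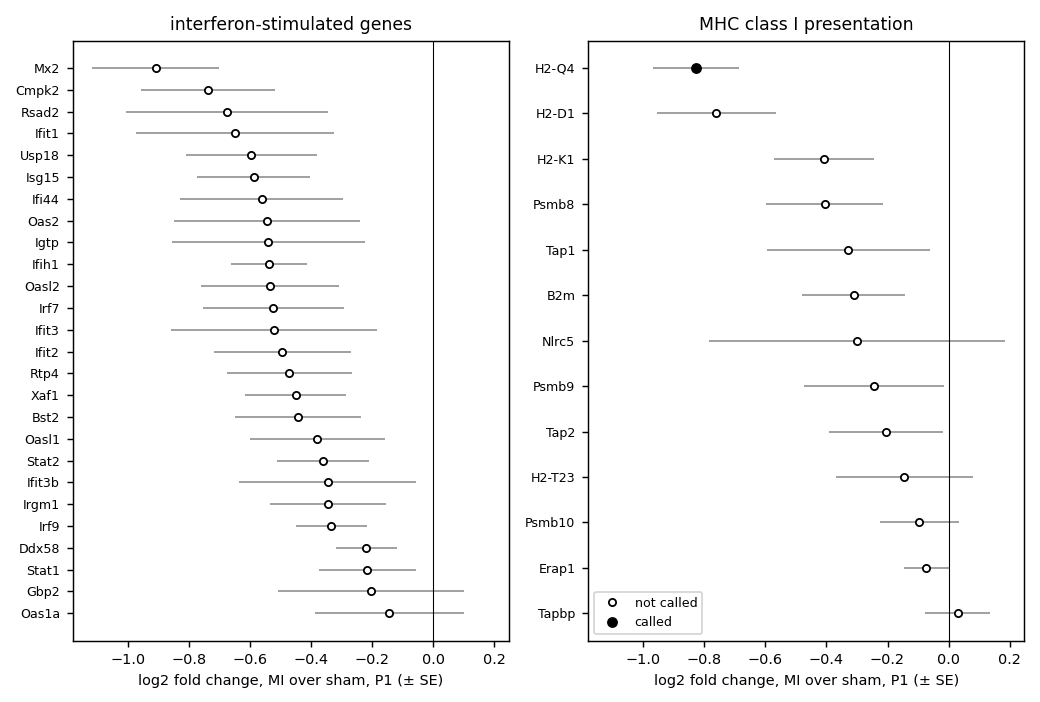
Log2 fold change, MI over sham at P1, with its SE, for the tested interferon-stimulated genes (left) and genes of MHC class I presentation (right); the filled point passed the adjusted threshold and open points did not. All 26 interferon-stimulated genes lie below 0, and H2-Q4 is the one that passed.

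Of 16 endothelial identity genes tested 0 were called (median log2 fold change -0.06), of 16 tip cell and sprouting genes 0 (0.18), of 10 VEGF ligands and receptors 0 (0.03), of 14 Notch genes 0 (0.04) and of 19 genes of BMP and TGF-beta signalling 0 (0.01), all by limma. At an unadjusted p under 0.05, 1, 1, 2, 3 and 4 members of these lists were higher and 1, 0, 2, 1 and 2 lower. edgeR called 0 in each list, and DESeq2 called 2 Notch genes and 1 gene of BMP and TGF-beta signalling higher. Without both libraries numbered 4, limma called 3 Notch genes, 1 VEGF gene and 1 gene of BMP and TGF-beta signalling higher and 1 identity gene lower, and the medians of the VEGF, Notch and BMP lists were then -0.04, -0.01 and -0.06. Kdr was at 2112, 1749, 2037 and 1932 CPM in the MI libraries, against 2399, 2176, 2292 and 1881 CPM in the sham libraries, and Flt1, the decoy receptor for VEGF, at 781, 647, 668 and 724 CPM in the MI libraries, against 655, 718, 685 and 601 CPM in the sham libraries; the groups overlapped for both. The log2 fold changes were -0.16 ± 0.15 for Kdr and 0.08 ± 0.12 for Flt1. Dll4, the Notch ligand of tip cells, was at 231, 166, 185 and 208 CPM in the MI libraries, against 201, 227, 198 and 203 CPM in the sham libraries. The Dll4 log2 fold change was -0.08 ± 0.10 (adjusted p = 0.785). Nrp1, a VEGF co-receptor, Notch1, the main endothelial Notch receptor, and Eng, a TGF-beta co-receptor, had log2 fold changes of -0.03 ± 0.09, 0.16 ± 0.13 and 0.12 ± 0.12.

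Of 12 genes of cardiac capillaries and fatty acid handling 1 fell (Meox2), beside 0.127% of all genes. Of the 12, 10 had a log2 fold change below 0, and the median was -0.26. Lpl, the lipase that frees fatty acids at the capillary wall, was at 128, 143, 196 and 148 CPM in the MI libraries, against 229.9, 253, 228 and 212 CPM in the sham libraries. The MI libraries were all below the sham libraries, with MI replicate 3 the nearest (log2 fold change -0.60 ± 0.14, adjusted p = 0.0845, limma, not called; named after its value was seen). Cd36, the fatty acid transporter and the most abundant member, was at 2237, 2288, 2703 and 2431 CPM in the MI libraries, against 3178, 3403, 3542 and 2697 CPM in the sham libraries. The Cd36 log2 fold change was -0.40 ± 0.16 (adjusted p = 0.254). Fabp4, which carries fatty acids inside capillary cells, had a log2 fold change of -0.16 (adjusted p = 0.553).

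Genes that signal to leukocytes did not pass the test. Of 22 cytokine and chemokine genes tested 18 had a log2 fold change above 0 and 0 were called by limma (median 0.45; 10 higher and 0 lower at an unadjusted p under 0.05, 0 by edgeR and 2 higher by DESeq2). For 7 the MI libraries lay above all sham libraries, beside 4.5% of all genes. The most abundant, Cxcl12, which holds stem and progenitor cells in place, had a log2 fold change of -0.17 (adjusted p = 0.668), and Cxcl1, which draws neutrophils, was at 67.5, 80.5, 57.3 and 57.0 CPM in the MI libraries, against 32.5, 53.5, 51.6 and 54.6 CPM in the sham libraries. The Cxcl1 log2 fold change was 0.46 (adjusted p = 0.303). Ccl2, the main monocyte chemokine, named after its values were seen, was at 16.6, 20.9, 9.66 and 10.4 CPM in the MI libraries, against 3.92, 5.05, 7.67 and 7.26 CPM in the sham libraries. The groups were separate, and the log2 fold change was 1.18 ± 0.33 (adjusted p = 0.130, limma). Il6 was at 34.6, 42.4, 45.0 and 28.7 CPM in the MI libraries, against 19.3, 25.4, 28.4 and 15.8 CPM in the sham libraries, barely separate (log2 fold change 0.76 ± 0.40, adjusted p = 0.417). Selp, the P-selectin that slows rolling leukocytes, was at 70.1, 52.5, 43.8 and 45.6 CPM in the MI libraries, against 19.1, 33.6, 36.0 and 20.8 CPM in the sham libraries (log2 fold change 0.97 ± 0.29, adjusted p = 0.149), and Vcam1, which arrests them, at 129, 127, 72.8 and 87.1 CPM in the MI libraries, against 41.5, 72.9, 83.3 and 57.6 CPM in the sham libraries. The Vcam1 log2 fold change was 0.70 (adjusted p = 0.14). The monocyte and macrophage marker sums given above were also higher in the MI libraries than in sham libraries 1 to 3; their part in these values was not tested.

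For matrix and contractile genes the result depended on the libraries numbered 4, and the values without them are a description, as said above. All 24 tested genes of basement membrane and interstitial matrix had a log2 fold change above 0, with a median of 0.39, and 0 were called by limma (13 higher at an unadjusted p under 0.05, 0 by edgeR and 1 higher by DESeq2). Without both libraries numbered 4, 8 were called higher and the median was 0.37. Col4a1 and Col4a2, the collagens of the vessel basement membrane and the most abundant members, had log2 fold changes of 0.25 and 0.18 (adjusted p = 0.553 and 0.644, limma). Fn1, which encodes fibronectin, was at 2931, 1979, 1418 and 1576 CPM in the MI libraries, against 907, 1107, 1170 and 1103 CPM in the sham libraries, with separate groups (log2 fold change 0.83 ± 0.20, adjusted p = 0.0857). Col1a1, a fibrillar collagen of fibroblasts, was at 514, 565, 356 and 231 CPM in the MI libraries, against 87.1, 106, 139 and 502 CPM in the sham libraries. Sham replicate 4 was as high as the MI libraries and the others were far lower, and the log2 fold change was 1.30 ± 0.44 (adjusted p = 0.197) and without both libraries numbered 4 it was 2.11 (adjusted p = 0.00278). Col3a1, the most abundant fibroblast marker, had log2 fold changes of 1.05 over all 8 libraries and 1.66 without those libraries (adjusted p = 0.194 and 0.00516). Of the 13 fibroblast markers 0 were called with all libraries (limma; 7 higher at an unadjusted p under 0.05, 0 by edgeR or DESeq2) and 6 without the pair.

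Mural and smooth muscle genes followed the same split. All 12 tested mural markers had a log2 fold change above 0 (median 0.50) and 0 were called by limma (8 higher at an unadjusted p under 0.05, 0 by edgeR and 4 higher by DESeq2). Of these, 6 were called without the libraries numbered 4. Acta2, the actin of smooth muscle, was at 106, 109, 91.8 and 42.0 CPM in the MI libraries, against 32.4, 24.7, 33.2 and 52.7 CPM in the sham libraries. MI replicate 4 was below sham replicate 4, and the other libraries were clearly apart: the log2 fold change was 1.24 ± 0.26 (adjusted p = 0.0517, limma) and without the pair 1.76 (adjusted p = 4.69e-05). Tagln, an actin-bundling protein of smooth muscle, was at 25.3, 30.3, 26.2 and 12.1 CPM in the MI libraries, against 9.19, 7.85, 10.5 and 14.9 CPM in the sham libraries, with log2 fold changes of 1.07 and 1.52 (adjusted p = 0.0517 and 1.34e-05). Notch3, the Notch receptor of mural cells, was at 165, 105, 136 and 82.2 CPM in the MI libraries, against 74.4, 77.5, 77.9 and 93.0 CPM in the sham libraries (log2 fold change 0.55, adjusted p = 0.171; 0.80 and 0.0198 without the pair). Acta2, Tagln and Notch3 were named after their values were seen. Of the 12 monocyte and macrophage markers, 0 were called with all libraries (limma; 6 higher and 1 lower at an unadjusted p under 0.05, 0 by edgeR and 1 by DESeq2) and 10 without the pair. Lyz2, a lysozyme of these cells, was at 25.3, 44.7, 10.6 and 13.2 CPM in the MI libraries, against 1.49, 2.96, 3.21 and 20.1 CPM in the sham libraries. Of the marker sums given above, those of fibroblasts and of monocytes and macrophages were higher in the MI libraries than in sham libraries 1 to 3, as these genes were, and their part in the values was not tested. The mural sums given above were higher in every MI library than in every sham library, and whether mural cells were more numerous was not tested. For Acta2, Tagln and Notch3, sham replicate 4 was below MI libraries 1 to 3 and above MI replicate 4.

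The 34 genes were then read in the other cell populations taken at P1, in a comparison added after the data were seen. In P1 fibroblasts, 5 of the 14 genes that rose were also called higher (Tnfaip3, Pdgfa, Actg2, Sorcs1 and Mapk6), beside 1.99% of the genes tested there, and 2 of the 20 that fell were called lower (Nabp1 and Plscr4), beside 0.375%. Fibroblast Tnfaip3 averaged 123 CPM after MI and 43.6 CPM after sham (log2 fold change 1.52, adjusted p = 4.21e-04, limma). In cardiomyocytes Tnfaip3 was the one gene of the 34 called, at 91.2 CPM after MI and 44.4 CPM after sham (log2 fold change 1.03, adjusted p = 0.0480), beside 0.285% of genes called higher and 0.0582% called lower. Leukocytes had far more Tnfaip3, 609 CPM after MI and 663 CPM after sham, and the gene was not called there (log2 fold change -0.12, adjusted p = 0.780).

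In leukocytes, 2 of the 13 genes that rose and were tested there were called higher (Specc1 and Cux1) and 3 lower (Pdgfa, Spon1 and Ehd3), and of the 17 that fell and were tested 9 were called lower and 2 higher (Trim30a and Nabp1), beside 22.6% of all genes in each direction.

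Differences between the responses were tested over the 32 P1 libraries. The endothelial response differed from that of leukocytes for 12 of the 14 genes that rose and 6 of the 20 that fell, beside 33.3% of all genes. Against fibroblasts it differed for 0 of the 14 and 1 of the 20 (0.825% of all genes), and against cardiomyocytes for 1 and 2 (0.492%). All of these genes had been picked by their endothelial response, which is part of each difference, so these counts are a description. Against leukocytes, the count among genes that fell was near the share over all genes. The one that differed from fibroblasts was Trim30a. Fibroblasts held little of it, 1.04 CPM after MI and 0.892 CPM after sham (log2 fold change 0.14, adjusted p = 0.902, limma). At that level the added 0.5 CPM limits the fold, so the difference may not reflect the response of the cells. In leukocytes Trim30a was higher after MI, at 93.0 CPM after MI and 46.9 CPM after sham (log2 fold change 0.98, adjusted p = 5.55e-04, limma). Pdgfa was called lower in leukocytes, at 14.8 CPM after MI and 24.1 CPM after sham (log2 fold change -0.69, adjusted p = 0.00295). Leukocyte Meox2 was 6.22 CPM after MI and 42.5 CPM after sham. The endothelial identity genes summed to 556 to 1049 CPM in MI leukocytes and to 4370 to 5248 CPM in sham leukocytes, so that sum was lower after MI. Its part in the leukocyte values of Meox2, which was lower too, was not tested. The cardiomyocyte markers summed to 5716 to 15739 CPM in MI leukocytes and to 19634 to 25460 CPM in sham leukocytes, also lower after MI. Cardiomyocytes themselves averaged 26.8 CPM of Pdgfa after MI and 28.5 CPM after sham. The part of these cells in the leukocyte values of Pdgfa and the other genes, and so in the differences from leukocytes, was not tested.

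**Figure D4:**
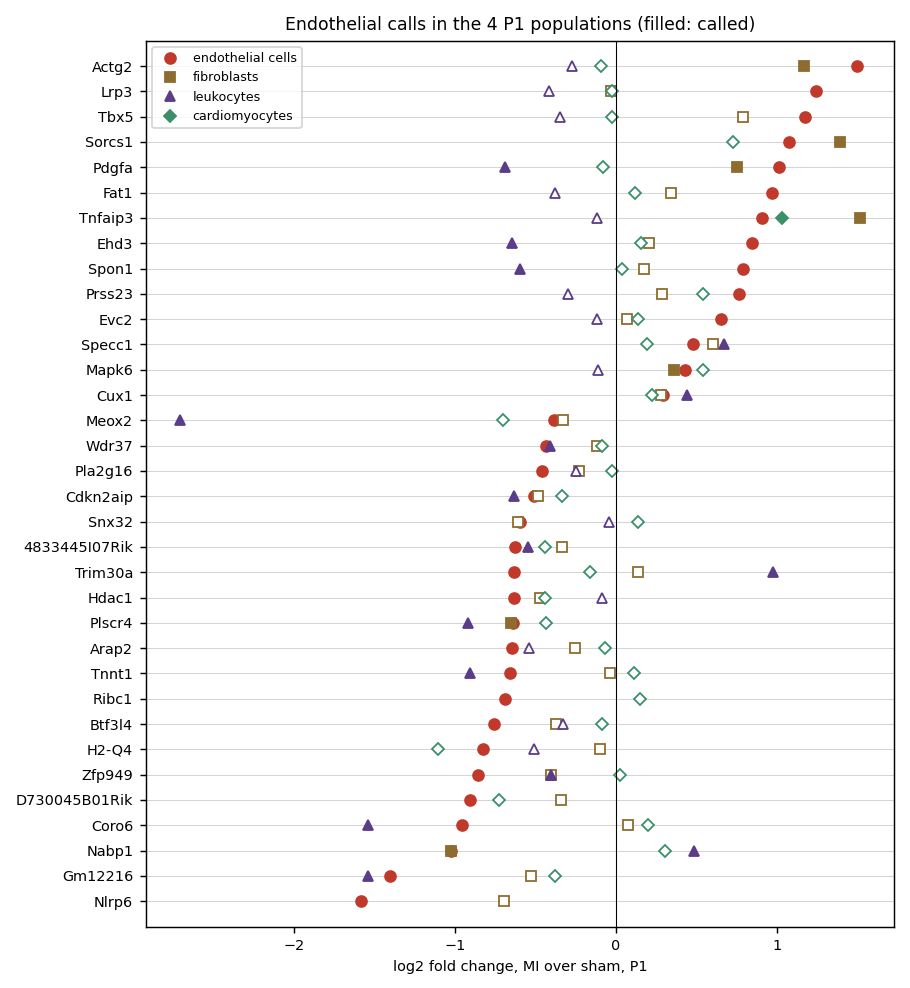
Log2 fold change, MI over sham at P1, of the 34 endothelial genes in endothelial cells (circles), fibroblasts (squares), leukocytes (triangles) and cardiomyocytes (diamonds); filled markers passed the adjusted threshold in that population. Tnfaip3 is filled for endothelial cells, fibroblasts and cardiomyocytes, and Meox2 lies at -2.71 in leukocytes.

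Endothelial cells at P56 had many more called genes. With the same test 1970 genes were higher after MI (12.5%) and 1237 lower (7.88%) at P56. The P1 response minus the P56 response differed for 850 genes (5.41%), 318 in the upward and 532 in the downward direction (2.02% and 3.39%). Leaving out each P1 library in turn gave 154 to 463 and 298 to 489.

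Cell division genes gave the clearest contrast. Of 25 genes of the G2 and M phases, 0 were called at P1 by limma (median log2 fold change 0.12). At P1 0 had an unadjusted p under 0.05, and edgeR and DESeq2 called 0. At P56 25 were called higher (median 2.13), beside 12.5% of all genes. The difference between ages was called for 23, all lower at P1, beside 3.39% of all genes. The list summed to 2189 to 2713 CPM after MI and 1911 to 2496 CPM after sham at P1. At P56 it summed to 273 to 717 CPM after MI and 77.6 to 244 CPM after sham. The lowest P1 sham library thus held more than the highest P56 MI library. Mki67, a marker of dividing cells, was at 580.0, 638, 529 and 555 CPM in the MI libraries, against 598, 464, 549.8 and 509 CPM in the sham libraries at P1. Its log2 fold change was 0.12 ± 0.35 at P1, beside 114 ± 49.7 CPM after MI and 27.4 ± 22.1 CPM after sham at P56 (SD, n = 4 each) and a log2 fold change of 2.19 at P56, and the difference was -2.07 (adjusted p = 0.0226, limma). Top2a, the topoisomerase of mitotic chromosomes, was at 393, 452, 355 and 378 CPM in the MI libraries, against 392.1, 309, 379.8 and 335 CPM in the sham libraries at P1, and averaged 80.7 ± 34.4 CPM after MI and 14.3 ± 9.74 CPM after sham at P56 (SD, n = 4 each). The Top2a difference between ages was -2.36 (adjusted p = 0.0105). Of 25 DNA replication genes 0 were called at P1 by limma (median 0.19). At an unadjusted p under 0.05, 2 were higher and 1 lower at P1, and edgeR and DESeq2 called 0. At P56 23 were called higher (median 1.15), with a called difference for 14, all lower at P1, beside the same shares of all genes.

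**Figure D5:**
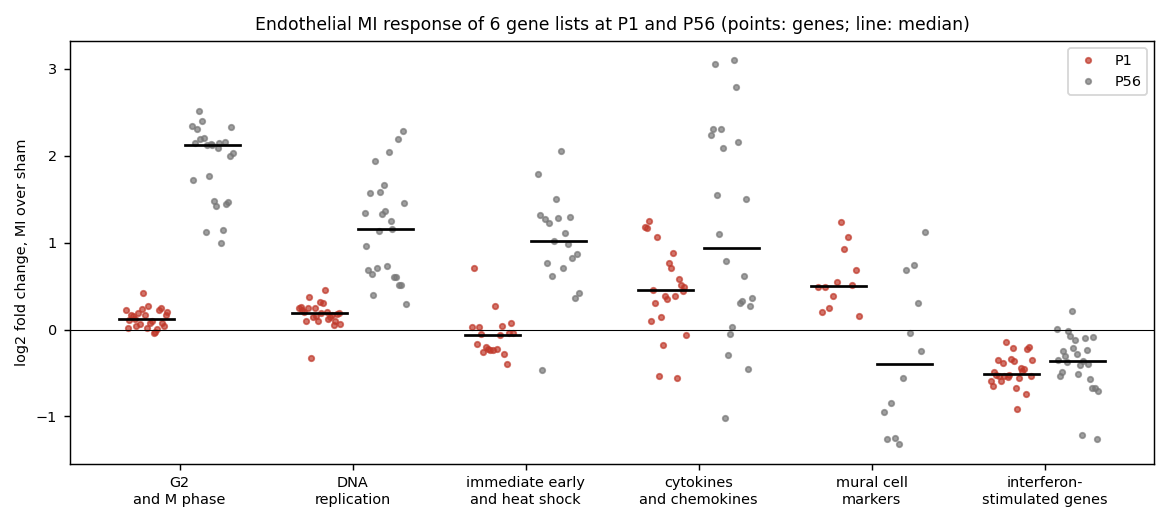
Log2 fold change, MI over sham, of the tested genes of 6 lists in endothelial cells at P1 (red) and P56 (grey); points are genes and lines are medians. Genes of the G2 and M phases have medians of 0.12 at P1 and 2.13 at P56, while interferon-stimulated genes lie near each other at -0.51 and -0.36.

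The difference between ages was called for 3 of 24 matrix genes, all lower at P1, and for 5 of 22 cytokine and chemokine genes, 4 lower and 1 higher, beside 3.39% of all genes lower and 2.02% higher. The genes described next were named for the size of their difference, except Selp, Il6 and Fos. Spp1, the secreted matrix and immune protein osteopontin, was at 44.6, 131, 13.6 and 35.5 CPM in the MI libraries, against 0.523, 11.4, 3.80 and 17.3 CPM in the sham libraries at P1, and averaged 124 ± 93.7 CPM after MI and 0.142 ± 0.162 CPM after sham at P56 (SD, n = 4 each). Its P1 minus P56 difference was -4.43 on the log2 scale (adjusted p = 0.0238, limma), and at P1 it was not called (adjusted p = 0.107). The P56 sham level was near the floor of 3 reads, so the size of this difference rests on the added 0.5 CPM. Tnc, which encodes tenascin-C, was at 256, 227, 142 and 145 CPM in the MI libraries, against 88.5, 90.3, 113 and 134 CPM in the sham libraries at P1, and averaged 114 ± 69.2 CPM after MI and 4.11 ± 1.21 CPM after sham at P56 (SD, n = 4 each). The Tnc difference between ages was -3.60 (adjusted p = 0.00268). Timp1, an inhibitor of matrix proteases, was at 5.21, 6.94, 4.19 and 3.35 CPM in the MI libraries, against 2.61, 2.83, 3.10 and 2.75 CPM in the sham libraries at P1, and averaged 18.5 ± 6.98 CPM after MI and 0.438 ± 0.124 CPM after sham at P56 (SD, n = 4 each). The Timp1 difference between ages was -3.58 (adjusted p = 1.30e-04). Tnc after sham was thus about as high at P1 as after MI at P56, while Timp1 was low at P1 in both groups. Selp and Il6 differed as well, by -2.17 and -2.34 (adjusted p = 0.00874 and 0.0250). In the immediate early and heat shock list, 0 of 19 genes were called at P1 (limma, 0 also at an unadjusted p under 0.05 and by edgeR or DESeq2). At P56 10 were called higher, beside 12.5% of all genes (medians -0.06 at P1 and 1.02 at P56). The difference between ages was called for 4, all lower at P1. Fos, the most abundant member of the list, was at 923, 1030, 1351 and 1059 CPM in the MI libraries, against 948, 1174, 1108 and 1006 CPM in the sham libraries at P1 (difference -1.76, adjusted p = 0.170).

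In the other direction, the response at P1 exceeded that at P56 for 7 of 16 cardiomyocyte markers and 6 of 12 mural markers, beside 2.02% of all genes. At P1 0 genes of either list were called. At P56, 8 cardiomyocyte and 6 mural markers were called lower and 1 and 2 higher (medians -0.98 and -0.40, limma), beside 7.88% and 12.5% of all genes. Part of each difference is thus a fall at P56. Ckm, the creatine kinase of muscle, was at 16.6, 15.4, 11.9 and 7.13 CPM in the MI libraries, against 4.86, 6.98, 4.65 and 14 CPM in the sham libraries at P1, and averaged 28.6 ± 11.6 CPM after MI and 77.4 ± 23.1 CPM after sham at P56 (SD, n = 4 each), a difference of 2.25 (adjusted p = 0.0182, limma). Dpep1, a membrane dipeptidase, was at 3.76, 4.07, 3.91 and 2.89 CPM in the MI libraries, against 0.261, 1.03, 1.16 and 4.34 CPM in the sham libraries at P1, and averaged 9.31 ± 4.90 CPM after MI and 18.0 ± 3.95 CPM after sham at P56 (SD, n = 4 each). The Dpep1 difference between ages was 2.27 (adjusted p = 0.0372). Sham replicate 4 was the highest sham library for both genes. The cardiomyocyte marker sums were 3911 to 8636 CPM after MI and 9242 to 21027 CPM after sham at P56, well above those at P1, and moved with these genes at P56; their part in the difference was not tested. For 12 of the 34 genes called at P1 the difference from P56 was called as well, beside 5.41% of all genes; they had been picked by their P1 response, so this count is a description. Among them were Tnfaip3 (0.77, adjusted p = 0.0250), which averaged 30.4 ± 5.13 CPM after MI and 27.3 ± 2.45 CPM after sham at P56 (SD, n = 4 each), and Lrp3 (1.67, adjusted p = 0.00785) and Hdac1 (-0.88, adjusted p = 0.00874). Nlrp6, which is counted among the 12, was at 0.0612 ± 0.0604 CPM after MI and 0.0217 ± 0.0251 CPM after sham at P56 (SD, n = 4 each). That is below the floor of 3 reads, so neither a fold at P56 nor a difference between ages can be read for it. Of the 14 genes that rose at P1, 5 were called higher at P56 too (Pdgfa, Ehd3, Mapk6, Prss23 and Cux1), beside 12.5% of all genes, and of the 20 that fell 4 were called lower (Coro6, Tnnt1, Arap2 and Pla2g16), beside 7.88%, and 1 was called higher, the noncoding RNA D730045B01Rik. Pdgfa, Ehd3 and Mapk6 had log2 fold changes at P1 and P56 of 1.01 and 0.74, 0.85 and 0.94, and 0.43 and 0.49. The interferon-stimulated genes had a median of -0.36 at P56, where 6 were called lower, and the difference between ages was called for 0 of the 26 (limma; smallest adjusted p 0.208).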

How the data were processed

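Total RNA of sorted mouse heart cells was sequenced after rRNA removal as 50-base single-end reads with a stranded kit, per the labels' protocols. Trimmomatic, HTSeq, STAR and edgeR, together with the builds GRCm38, mm10 and GRCh38, are listed in the submitters' processing notes, with no versions or roles; the strand setting of the counting was not given in the sources used here. The authors deposited 1 table of 20637 genes, holding for each library a normalised signal, here called CPM, the count scaled by 1 factor per library. Values are multiples of 1 step per library, and 100% came out as whole reads within a tolerance of 0.01. The gene length column, of another unit, was also deposited by the authors and not used for the results. Gene names were matched in GENCODE for 20541 of the genes.

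Groups came from the labels. The values were tested as log2(CPM + 0.5) with limma 3.58.1 in R 4.3.3 (variance trend, 16 endothelial libraries, genes reaching 1 CPM in 4 libraries or more, Benjamini-Hochberg adjusted p under 0.05). The P1 minus P56 difference is an interaction term of the same model. Other P1 populations were compared in a model of 32 libraries, a comparison chosen after the data were seen. edgeR 4.0.16 and DESeq2 1.42.0 ran on the recovered reads as alternatives, beside other pseudocounts, filters and scalings and leaving out each library. Genes named are the 12 largest changes per direction among called genes with at least 5 CPM in the higher group, without predicted genes, up to 3 called members or otherwise the 2 most abundant of each list, and the 4 largest age differences per direction. The members and lists were chosen with earlier results of these data known. On simulated data for P1 MI against sham (15493 genes), 93 of 100 genes changed 2-fold and 100 of 100 changed 4-fold were recovered, with 12 false calls. The simulation drew noise for each gene on its own, and the genes it changed had means above 2 CPM. It held no difference shared across genes between libraries of a group, unlike the real libraries. It therefore checks the procedure and does not give the share of real changes found. Lyz2, with a log2 fold change of 2.10, was not called (adjusted p = 0.120, limma). The chi-square per gene between libraries of a group was 11.73 to 49.35, above counting noise, so no pair was treated as 1 library deposited again. That does not show that they came from separate pools. The sex-linked gene Xist was at 690, 740, 420 and 978 CPM in sham libraries 1 to 4, and Ddx3y at 98.3, 95.5, 147 and 63.3 CPM. In MI libraries 1 to 4 Xist was at 777, 521, 581 and 805 CPM, and Ddx3y at 63.9, 61.5, 87.1 and 61.7 CPM. Whether these values reflect separate pools was not tested. Counting error limits low genes and arises from reads without molecular identifiers. ATAC libraries were not analysed here.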

Additional observations from a re-analysis of the deposited data

Results flagged for a closer look

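Within a group of 4 libraries, 10 of 184 groups held a library far from the other 3, and chance flags about 1 in 20 groups. Sham replicate 4 stood above its group for Tbx5 (1.42 CPM), Myh11 (26.4 CPM), Lyz2 (20.1 CPM), Col1a1 (501.7 CPM) and Myl2 (127 CPM). Sham replicate 3 stood apart for Cux1 (109 CPM), sham replicate 1 for Cxcl1 (32.5 CPM) and sham replicate 2 for Dll4 (227.5 CPM). MI replicate 1 stood apart for Cdh5 (1941 CPM) and MI replicate 2 for Mcm6 (169.8 CPM).

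The MI response at P1 minus that at P56 passed the adjusted threshold of limma's interaction term for 26 of the genes named or called. It was positive, on the log2 scale, for Tnfaip3 (0.77), Notch3 (1.10), Sorcs1 (1.26), Lrp3 (1.67), Myl2 (2.07), Ckm (2.25) and Dpep1 (2.27). It was negative among genes called at P1 for Cdkn2aip (-0.55), Snx32 (-0.58), Trim30a (-0.63), Btf3l4 (-0.65), Ribc1 (-0.74), Hdac1 (-0.88), Nabp1 (-0.97), D730045B01Rik (-1.60) and Nlrp6 (-1.69). Nlrp6 was below the floor of 3 reads at P56, so a difference between ages cannot be read for it, though its value passed the threshold. It was also negative for Tgfbr2 (-0.54), Junb (-1.49), Mki67 (-2.07), Selp (-2.17), Il6 (-2.34), Top2a (-2.36), Adamts4 (-3.35), Timp1 (-3.58), Tnc (-3.60) and Spp1 (-4.43).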

How the results depend on the processing

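All 34 called genes kept their direction in every alternative that gave them a value. Among the other genes named, 9 with values near 0 changed sign in at least 1 alternative, and without both libraries numbered 4 these were Tgfbr2 (-0.07) and Unc5b (-0.05). The counts were less stable. Genes higher and lower at P1 numbered 7 and 15 with a pseudocount of 0.1, 26 and 36 with 1, 11 and 17 with no filter, 9 and 15 with a filter at 5 CPM, 13 and 20 with median-of-ratios scaling, 15 and 28 with quantile normalization, and 9 and 19 with no variance trend. They numbered 124 and 142 with array weights, 60 and 75 from the 8 P1 libraries alone, 10 and 17 with edgeR, 151 and 183 with DESeq2, 5 and 3 with a fold of at least 2, and 315 and 134 without both libraries numbered 4. Leaving out 1 library gave 0 to 196 higher and 0 to 72 lower.

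The replicate numbers do not pair the libraries: same-numbered MI and sham libraries had correlations of their deviations of -0.163, -0.31, -0.0876 and -0.27. With the replicate number as a block, limma called 0 higher and 0 lower at P1 (1976 at an unadjusted p under 0.05), and the difference between ages was called for 187 and 261 genes.

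For the P1 minus P56 difference, the higher count was 664 with array weights, 516 with DESeq2, 496 without both libraries numbered 4 and 172 with a fold of at least 2, and 154 to 463 leaving out 1 library. The lower count was 1156 with array weights, 876 with DESeq2, 298 with a fold of at least 2, and 298 to 489 leaving out 1 library. The cause of these moves was not tested. Depth limits genes near 3 reads, which were worth 0.112 to 0.131 CPM.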

Other observations

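Markers of other endothelial subtypes had 0 calls at P1 (limma, 0 also by edgeR). All 10 endocardium genes and all 7 tested lymphatic genes had a log2 fold change above 0, with medians of 0.27 and 0.45, beside 0.01 over all genes tested; without both libraries numbered 4, 0 endocardium and 2 lymphatic genes were called higher. At an unadjusted p under 0.05, 2 endocardium and 5 lymphatic genes were higher, and DESeq2 called 1 of each. The 11 arterial genes had a median of 0.05, with 0 at an unadjusted p under 0.05 and 0 by DESeq2. The 8 venous genes had a median of 0.36, with 4 higher at an unadjusted p under 0.05 and 2 called higher by DESeq2. Of 17 glycolysis genes 16 were above 0 (median 0.18), and of 23 oxidative phosphorylation genes 18 (median 0.11). At P56, 10 of these 23 were called lower (median -0.33), beside 7.88% of all genes.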
